A study of Mus musculus with 384 samples.

Results

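Imprinted genes are genes of which usually only the copy from 1 parent is transcribed. A list of 41 of them, in 20 clusters on 11 mouse chromosomes, was looked up by Ensembl gene identifier among the 31617 genes of the deposited raw count table, and all 41 were found. The list rests on gene names and uses no measured value, though earlier results of these data were known when it was drawn up. By general knowledge, 22 are usually expressed from the paternal copy and 10 from the maternal copy, and 9 change with the isoform or tissue. The cells were mouse pluripotent stem cells from the formative stem (FS) cell lines 5ar1 and 5ar2 (2 lines) and the epiblast-derived stem cell (EpiSC) lines AFX6 and AF32 (2 lines). FS cells, labelled formative, were grown in the medium that the labels call A3XR, with a low dose of activin, the tankyrase inhibitor XAV939, which blocks canonical Wnt signalling, and the retinoic acid receptor inverse agonist BMS493. EpiSCs, labelled primed, were grown in a higher dose of activin with Fgf2, with XAV939 for AFX6 (AFX medium) and without it for AF32 (AF medium). Single cells were sorted into wells, 96 per line, and read by Smart-seq2, which covers full-length mRNA. No genotype is given in the labels, the strain of each line is not stated in the sources used here, and each medium for EpiSCs is represented by 1 line, so medium and line cannot be told apart there. The reads carry no parental information, so all values are the sum of both copies.

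Imprinting is set up in the germ line. Stretches of DNA called imprinting control regions are methylated in the egg or the sperm, and the mark survives the wave of demethylation after fertilisation because the zinc finger protein ZFP57, with TRIM28 and the methyltransferase DNMT1, protects it. The mark then decides which parental copy of the surrounding genes is transcribed, often over a whole cluster and often through a long non-coding RNA. Imprinted genes are known for roles in growth, placenta and brain, and cultured pluripotent cells are known to lose or gain imprints, most often described for Dlk1-Meg3 and H19/Igf2.

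The sequences before the transcription start are shown for the 3 genes that stood high in both FS lines and low in both EpiSC lines (Mest, Nnat and Ascl2) and for Meg3, which was under 5 CPM (counts per 1000000 counts) in some cells of every line. Each is 250 bases before a RefSeq start (GRCm38.p6), 5′ to 3′ on the strand of the gene, and capitals mark the hexamer TGCCGC, which ZFP57 binds when it is methylated, or its reverse complement GCGGCA. The Mest window is 1 of several RefSeq starts of this gene, at chr6:30737800-30738049 on the plus strand, and holds 2 hexamers, while the 250 bases before the start at chr6:30733256-30733505 hold 0. The Meg3 window at chr12:109540746-109540995 on the plus strand holds 1 and that of another start (chr12:109545148-109545397) holds 0, and the windows of Nnat (chr2:157559828-157560077, plus strand) and Ascl2 (chr7:142969265-142969514, minus strand) hold 0.
Mest: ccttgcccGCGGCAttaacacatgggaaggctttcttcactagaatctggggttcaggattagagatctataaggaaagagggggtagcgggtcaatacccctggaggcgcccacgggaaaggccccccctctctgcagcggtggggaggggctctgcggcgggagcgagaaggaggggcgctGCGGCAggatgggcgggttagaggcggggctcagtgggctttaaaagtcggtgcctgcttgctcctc
Nnat: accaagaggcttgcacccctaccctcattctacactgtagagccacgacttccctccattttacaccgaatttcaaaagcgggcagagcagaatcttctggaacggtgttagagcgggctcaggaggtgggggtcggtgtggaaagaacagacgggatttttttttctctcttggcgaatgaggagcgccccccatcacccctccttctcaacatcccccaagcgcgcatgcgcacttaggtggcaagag
Ascl2: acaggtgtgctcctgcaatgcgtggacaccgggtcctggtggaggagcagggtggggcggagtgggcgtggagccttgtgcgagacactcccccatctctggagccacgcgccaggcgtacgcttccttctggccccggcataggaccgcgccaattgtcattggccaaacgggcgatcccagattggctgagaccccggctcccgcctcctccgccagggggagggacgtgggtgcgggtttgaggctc
Meg3: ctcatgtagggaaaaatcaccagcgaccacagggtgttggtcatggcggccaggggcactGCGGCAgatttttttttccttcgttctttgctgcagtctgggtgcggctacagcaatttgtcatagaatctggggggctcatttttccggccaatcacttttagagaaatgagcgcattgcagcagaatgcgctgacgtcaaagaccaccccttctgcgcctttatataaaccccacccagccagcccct
RefSeq windows, which add 50 bases after the start to reach 300 bases, matched 33 of the 41 genes with 48 windows. The hexamer was found on either strand in 14 of these windows (29.2%, in 13 genes, among them Nnat with 1 match that the printed 250 bases do not hold) and in 11.6% of all 32851 windows of the same length. The windows of imprinted genes held a median of 16.5 CpGs and all windows a median of 7, and the hexamer contains a CpG. A match is a description of letters only, and methylation was not measured here.

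Cells with at least 3000000 counts were kept, 326 of 384, namely 90 cells from each FS line, 66 from AFX6 and 80 from AF32. Kept cells held 3022666 to 6686007 counts, and the summed counts of a line ranged from 332621205 to 434858507. A median of 11371 and 11567 genes was detected per cell in the FS lines 5ar1 and 5ar2, beside 10328 and 10330 in the EpiSC lines AFX6 and AF32. Pou5f1, a defining gene of pluripotency, had a median of 498 to 630 CPM in the cells of each line. Of 6 listed markers of naive pluripotency, 5 were among the genes counted, and these summed to at most 3.73 CPM in a line. Zfp42 of that list, Cdx2 of the trophoblast list and Afp of the extraembryonic endoderm list were not among the genes counted. Cells with under 50 CPM of Pou5f1 were rare, with 2 and 1 in the FS lines and 1 and 3 in the EpiSC lines. Listed trophoblast markers summed to 25.2 CPM in 5ar1, of which Hand1 gave 23.5, and to at most 4.44 in the other lines. Extraembryonic endoderm markers summed to at most 8.2 CPM. Fibroblast markers summed to 7.59, 41.1, 14.7 and 11.7 CPM in 5ar1, 5ar2, AFX6 and AF32. The neural markers summed to 460, 237, 118 and 175 CPM. Of these Nes was at 123, 103, 101 and 97.4 CPM, while the neuronal tubulin gene Tubb3 was at 335, 130, 12.2 and 68.7 CPM, highest in both FS lines and lowest in AFX6. The part of other cell types in the results was not tested beyond the values given beside them. Y-linked genes, which summed to 154 to 255 CPM in the other lines, were at 0.547 CPM in AFX6, or 0.278% of the mean of those lines, a measure of reads from the other lines in AFX6 wells. AFX6 was thus the only line nearly without Y-linked transcripts. Patterns of AFX6 alone cannot be told apart from this difference, and the EpiSC group joins a line with and a line without these transcripts.

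Most imprinted genes reached 5 CPM in at least 1 line. The level of a line is given as summed CPM, the counts of a gene over all kept cells of the line per 1000000 of their counts, in the order 5ar1, 5ar2, AFX6, AF32. Of the 41 genes, 22 reached 5 CPM in all 4 lines, a count that was not made over all genes. In at least 1 line 33 reached it, beside 11728 of all 31617 genes. The other 8 (Kcnq1ot1, Zim1, Airn, Zrsr1, Peg13, Plagl1, Nap1l5 and Rasgrf1) lay between 0 and 3.32 CPM in every line. Counted per kilobase of exon, so that genes can be compared, the splicing protein gene Snrpn was highest in every line, at 342, 261, 219 and 157 CPM per kilobase. A line split was called where the widest gap between neighbouring levels of the sorted lines was at least 4-fold and the highest line reached 5 CPM, with levels under 0.5 CPM set to 0.5. It is a description, with no test, as each line is 1 sample. A split was called in 7 of the 33 genes (21.2%), beside 5.62% of all 11728 genes that reached 5 CPM in a line. The lines on the high side were both FS lines for Mest, Nnat and Ascl2, AF32 for Igf2 and Peg10, AFX6 for Phlda2, and every line but AFX6 for Magel2. By usual copy, 5 of the 15 paternally expressed genes at 5 CPM and 2 of the 9 maternally expressed ones had a split. Those just inside the limit were Phlda2 (4.3-fold), Peg10 (4.35-fold) and Igf2 (4.43-fold), and just outside lay Ndn (3.99-fold) and H19 (3.95-fold).

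**Figure D1:**
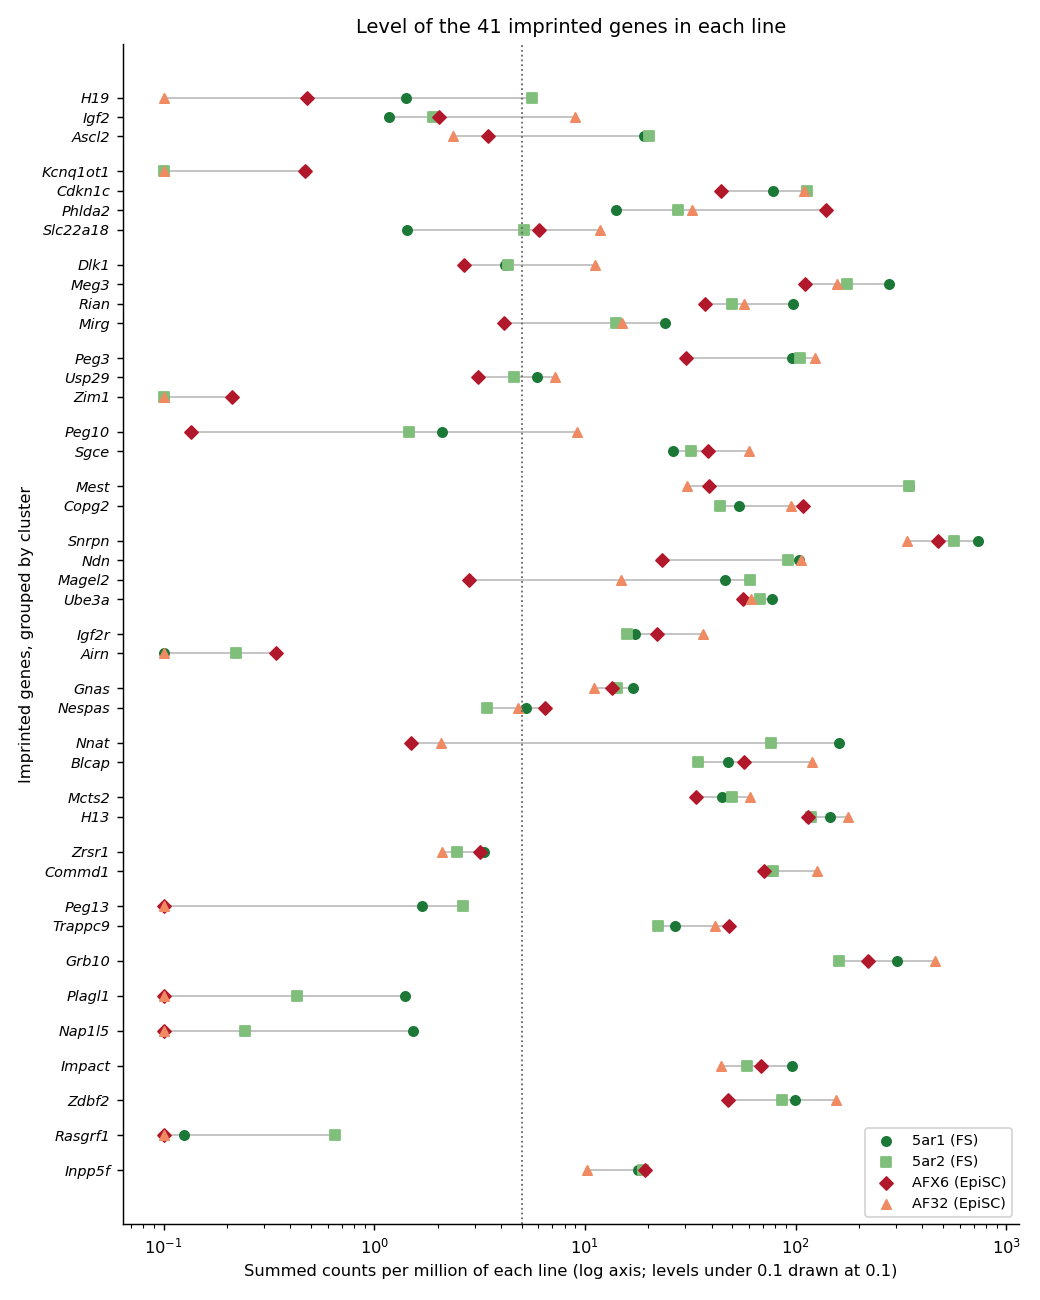
Summed CPM (log axis) of the 41 imprinted genes in 5ar1, 5ar2, AFX6 and AF32, with genes of 1 cluster next to each other and a dotted line at 5 CPM. Both FS lines lie at 344 CPM for Mest, where their symbols overlap, and the widest gap between FS lines and EpiSC lines among genes above 5 CPM is that of Nnat.

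Mest, which encodes a hydrolase-like protein and is paternally expressed, stood at 344, 344, 38.8 and 30.4 CPM (chr6:30723547-30748465). Both FS lines were high and both EpiSC lines low, with a gap of 8.87-fold. The gap came from the number of cells and from the level in a cell. Mest reached 5 CPM in 90 of 90 cells of 5ar1 and 88 of 90 of 5ar2, but in 33 of 66 of AFX6 (50%, exact 95% interval 37.4% to 62.6%) and 19 of 80 of AF32 (23.8%, 14.9% to 34.6%). In the cells that reached it, the median was 231, 259, 52.4 and 75.8 CPM. The cells of both EpiSC lines lay on both sides of 5 CPM, with a median over all cells of 4.05 CPM in AFX6 and 0.421 CPM in AF32. The FS cells lay at or above 5 CPM apart from 2 cells of 5ar2. Whether the EpiSCs form separate groups was not tested. Median detected genes were 10600 in AFX6 cells with Mest at 5 CPM and 10200 in those without, and 10500 and 10300 in AF32. The share printed here covers counting error only, and 23.1% of the Mest exon length overlaps other genes, among them its neighbour Copg2 on the opposite strand. Copg2, a coatomer subunit gene whose 3′ end lies over that of Mest, went the other way, at 53.8, 43.9, 109 and 94.7 CPM. The 2 genes therefore did not change as a cluster.

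Nnat, which encodes the small membrane proteolipid neuronatin, had the largest gap of the members. It is paternally expressed and lies inside an intron of Blcap, at chr2:157560078-157562522. Its level was 161, 76.2, 1.5 and 2.07 CPM, a gap of 36.8-fold between the lower FS line and the higher EpiSC line. Nnat reached 5 CPM in 78 of 90 and 69 of 90 FS cells, and in 4 of 66 and 8 of 80 EpiSCs, for the lines in the same order. The medians of the cells that reached it were 97.1, 88.7, 21.4 and 12.1 CPM, so FS and EpiSC lines did not overlap in either measure. A single 5ar1 cell held 37.5% of the Nnat counts of its line, at 8070 CPM, and this cell had 10100 CPM of Tubb3 and 3.41 CPM of Pou5f1. Without the highest cell of each line the level was 101, 73, 0.797 and 1.3 CPM, and over cells with at least 50 CPM of Pou5f1 it was 102, 75.7, 1.5 and 2.1 CPM. Tubb3 was likewise higher in both FS lines (335 and 130 CPM) than in AFX6 (12.2) and AF32 (68.7), and its part in the level of Nnat was not tested beyond these values. Blcap, the host gene with a role in apoptosis, lay at 47.6, 34.3, 56.6 and 119 CPM, lower in both FS lines than in both EpiSC lines. Its highest line was AF32, by 2.1-fold. In 29 of 80 AF32 cells the genes of chromosome 2 stood above 1.2 times the other autosomes, with a line median of 0.992, and the part of this in the level of Blcap was not tested.

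Ascl2, H19 and Igf2 lie on distal chromosome 7. Ascl2, a bHLH transcription factor of the trophoblast and a Wnt target in other tissues, stood at 19.1, 20.1, 3.47 and 2.4 CPM, a gap of 5.5-fold. It reached 5 CPM in 39 of 90 and 45 of 90 FS cells, and in 5 of 66 and 6 of 80 EpiSCs. In the cells that reached it, the medians were 38.9, 29.5, 41.6 and 22.6 CPM, so that FS and EpiSC lines overlapped in the level of a positive cell and were apart in the share of positive cells. The trophoblast markers Elf5, Gata3, Plac1 and Tfap2c were at 0 to 2.09 CPM in every line. Hand1 was at 23.5 CPM in 5ar1 and at 0.0276 to 0.261 CPM in the other lines. Cdx2, also a listed trophoblast marker, was not among the genes counted. The part of trophoblast cells in the level of Ascl2 was not tested beyond these values. The gap of Ascl2 fell below 4-fold over cells with at least 1000000 counts (1.4 on the log2 scale, against 2.5) and over cells with at least 10000 detected genes (1.98), so the call rests on the choice of cells.

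H19, a long non-coding RNA and host of the growth-limiting miRNA Mir675, and Igf2, the paternally expressed growth factor gene next to it, compete for the same enhancers. H19 was at 1.4, 5.61, 0.481 and 0.00281 CPM, and the last value is 1 count in the whole of AF32. Igf2 was at 1.2, 1.9, 2.02 and 8.96 CPM. The 4 lines thus had nearly opposite orders for the 2 genes, and AF32 was at the bottom for H19 and at the top for Igf2. H19 reached 5 CPM in 7, 22, 1 and 0 cells, and the 0 of 80 cells of AF32, taken as at most 3 cells, allows a share of up to 3.75%. A single cell held 99.4% of the H19 counts of AFX6. Igf2 reached 5 CPM in 4, 11, 11 and 33 cells, or 41.2% of the AF32 cells (30.4% to 52.8%) and 4.44% to 16.7% of the cells of the other lines. A single AF32 cell with 2.6 CPM of Pou5f1 held 31.4% of the Igf2 counts of its line. Without the highest cell of each line the levels of Igf2 were 1.02, 1.7, 1.8 and 6.2 CPM and the gap was 3.43-fold, so the call was lost while AF32 stayed highest. Annotated exons of other genes cover 64.5% of the exon length of Igf2, and reads there may have gone uncounted.

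In the neighbouring Kcnq1ot1 domain, the maternally expressed genes did not move together. Phlda2, which encodes a small pleckstrin homology protein that limits placental growth, was at 14, 27.6, 139 and 32 CPM, and AFX6 was alone on the high side, by 4.3-fold. It reached 5 CPM in 65 of 66 AFX6 cells (98.5%) and in 55.6%, 78.9% and 58.8% of the cells of 5ar1, 5ar2 and AF32. The median of the positive cells was 119 CPM in AFX6 and 18.4 to 38.6 CPM elsewhere. The gap was below 4-fold over cells with at least 1000000 counts (1.9 on the log2 scale, against 2.1) and over those with at least 10000 detected genes (1.6). Cdkn1c, the cell cycle inhibitor p57, was at 77.8, 113, 44.4 and 110 CPM, with AFX6 lowest. The transporter gene Slc22a18 was at 1.4, 5.11, 6.02 and 11.8 CPM. A single cell held 35% of its counts in AFX6 and 31.5% in 5ar1. Without the highest cell of each line its levels were 0.988, 4.53, 3.96 and 10.2 CPM, and a split with 5ar1 alone on the low side was called, at 4.01-fold. Kcnq1ot1, the paternally expressed long RNA that silences this domain, was at 0.471, 0.0092, 0.469 and 0.0703 CPM, and 2.2% or fewer of any line's cells reached 5 CPM.

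The Snrpn cluster on chromosome 7, known from Prader-Willi and Angelman syndromes, split inside itself. Magel2, which encodes a ubiquitin ligase adaptor, was at 46, 60.5, 2.8 and 14.8 CPM. Its neighbour Ndn, which encodes the growth suppressor necdin, was at 104, 92.1, 23.1 and 106 CPM. AFX6 was lowest for both, by 5.22-fold and 3.99-fold. Magel2 reached 5 CPM in 56, 66, 4 and 13 cells, so that both EpiSC lines (6.06% and 16.2%) were below both FS lines (62.2% and 73.3%). Ndn reached it in 80, 85, 28 and 61 cells, and its positive cells had a median of 112, 87.8, 38.8 and 116 CPM. In AF32, 48 of the 61 Ndn-positive cells were Magel2-negative, and 0 cells were Magel2-positive without Ndn. In 5ar1, 5ar2 and AFX6, 8, 2 and 1 cells were Magel2-positive without Ndn. Snrpn itself was at 738, 563, 472 and 338 CPM and in 95% or more of the cells of every line. Ube3a, the ubiquitin ligase gene imprinted in neurons only, was at 76.9, 67.9, 56.3 and 61.7 CPM. Tubb3 had the same split as Magel2, with AFX6 alone on the low side, and its part in these levels was not tested. Without the highest cell of each line the gap of Ndn was 4.35-fold, past the limit. The low cell numbers of Ndn and Magel2 in AFX6 were therefore not shared by Snrpn. For Magel2 the gap was 1.09 on the log2 scale, against 2.4, over cells with at least 1000000 counts, where the call was lost.

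**Figure D2:**
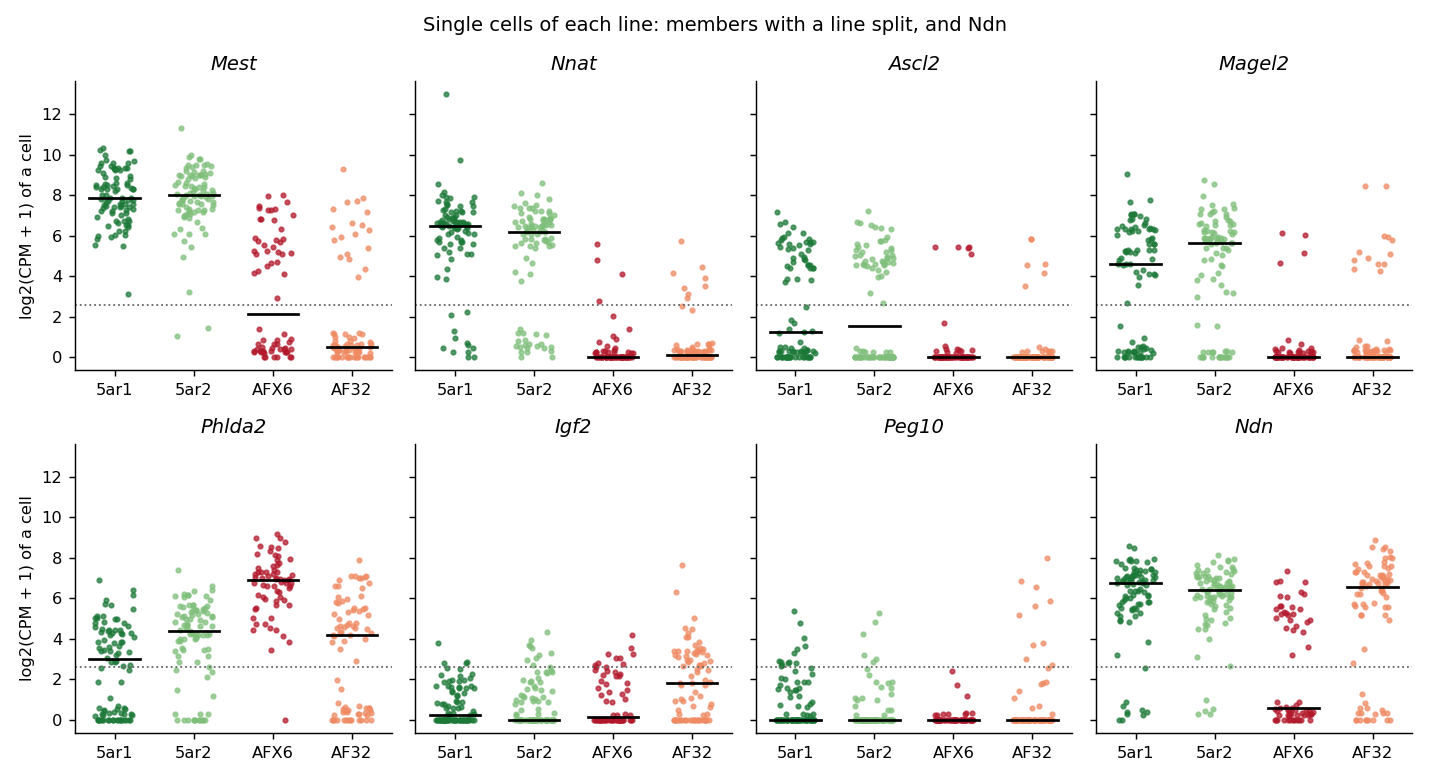
Each point is a cell, as log2(CPM + 1), for the 7 genes with a line split and for Ndn, with black bars at the line medians and a dotted line at 5 CPM. The lines differ in how many cells reach 5 CPM, for Mest 90 of 90 in 5ar1 and 19 of 80 in AF32, and for some genes also in the level of those cells, for Phlda2 a median of 119 CPM in AFX6 and 18.4 to 38.6 CPM elsewhere.

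The Dlk1-Meg3 cluster on chromosome 12 was transcribed in all 4 lines, and all 4 of its genes among the 41 were lowest in AFX6. Meg3, the maternally expressed long RNA at the head of the cluster, was at 278, 175, 111 and 157 CPM. Rian was at 97.3, 49.7, 37.2 and 56.7 CPM and Mirg, which lies further downstream, at 24, 14.1, 4.13 and 15 CPM. The 3 RNAs lie on the same strand between chr12:109541001 and 109749460, with stretches between them, and RefSeq places 1 miRNA hairpin inside Meg3, 3 inside Rian and 14 inside Mirg. Dlk1, the paternally expressed Notch-related transmembrane gene, was at 4.17, 4.3, 2.7 and 11.2 CPM, so it did not follow the order of the RNAs in AF32. A single 5ar1 cell with 3.41 CPM of Pou5f1 held 34.9% of the Dlk1 counts of its line, and without it 5ar1 was at 2.7 CPM. Mirg was 3.41-fold higher in the next line than in AFX6, and none of these 4 genes had a gap of 4-fold. Without the highest cell of each line the gap of Mirg was 4.32-fold, past the limit, with AFX6 alone on the low side. Rtl1 of the same cluster, not among the 41, had that split too and is given with the further imprinted genes.

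Within every line the 3 RNAs were low together in some cells, though Meg3 had at least 1 count in 100% of the cells of every line and in 0 cells were all 3 RNAs at 0. The lowest cell of a line held 0.198 to 0.624 CPM of Meg3. The part of reads from other wells in such low counts was not tested. Meg3, Rian and Mirg were all under 5 CPM in 3 of 90 cells of 5ar1 (3.33%, exact 95% interval 0.693% to 9.43%). In 5ar2 there were 9 of 90 such cells (10%, 4.68% to 18.1%), in AF32 7 of 80 (8.75%, 3.59% to 17.2%), and in AFX6, the line with the most, 15 of 66 (22.7%, 13.3% to 34.7%). The highest Meg3 level among all cells under 5 CPM was 1.2, 2.7, 4.07 and 3.37 CPM, while Meg3-positive cells had a median of 212, 168, 83.6 and 95.2 CPM. All 3 and all 9 Meg3-negative FS cells of 5ar1 and 5ar2, and 15 of 17 and 7 of 10 Meg3-negative EpiSCs of AFX6 and AF32, lacked all 3 RNAs at 5 CPM. Of the Meg3-positive cells, 1, 5, 12 and 10 lacked Rian. Cells with all 3 RNAs under 5 CPM had a median of 11055, 11610, 9965 and 9980 detected genes and the other cells 11380, 11565, 10493 and 10377. Their median of Snrpn was 724, 452, 473 and 124 CPM, beside 705, 539, 417 and 369 CPM in the other cells. Of the cells with under 50 CPM of Pou5f1, 1 of 5ar2 and 1 of AFX6 were among them. Dlk1 reached 5 CPM in 2 of the 3, 5 of the 9, 3 of the 15 and 5 of the 7 cells with all 3 RNAs under 5 CPM. It did so in 15, 22, 5 and 9 of the other, far more numerous cells. Over all cells of a line the share was 18.9%, 30%, 12.1% and 17.5%, so Dlk1 was more frequent among the low cells in every line, on few cells.

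**Figure D3:**
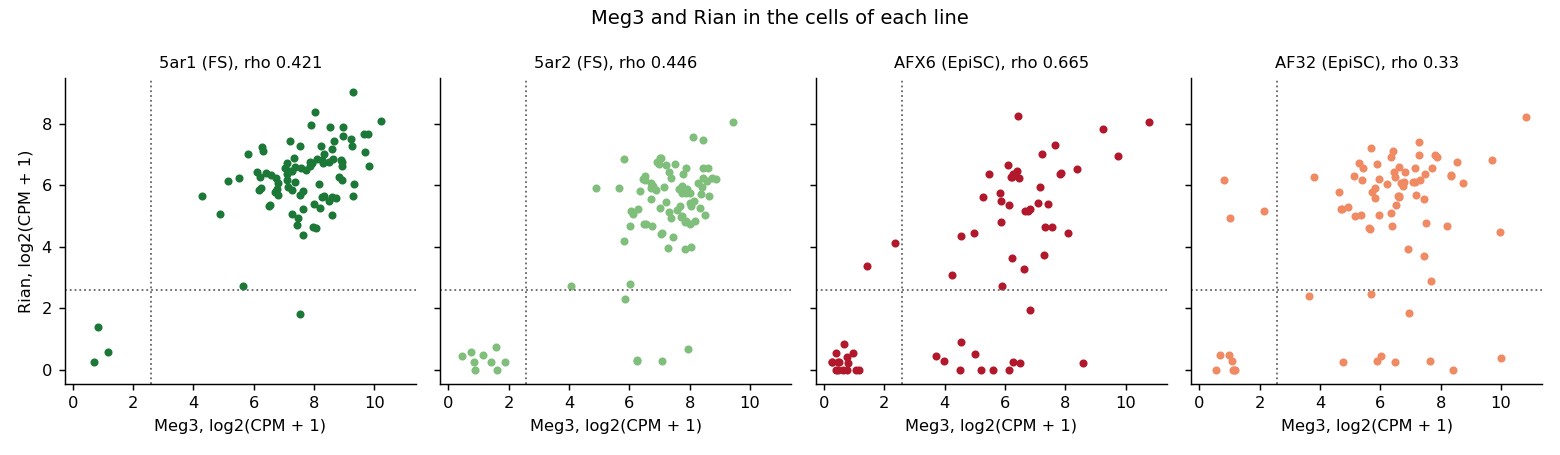
Meg3 against Rian in the cells of each line, both as log2(CPM + 1), with dotted lines at 5 CPM and Spearman's rho in the title. A group of cells at the lower left is low in both RNAs, and its share is largest in AFX6, where 15 of 66 cells have Meg3, Rian and Mirg all under 5 CPM.

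Peg3, a zinc finger gene at the head of a cluster on proximal chromosome 7, was at 96, 105, 30.2 and 123 CPM. AFX6 was again lowest, by 3.18-fold, and 51.5% of its cells reached 5 CPM, beside 93.3%, 98.9% and 78.8% of the other lines. Usp29, which starts next to it on the opposite strand, was at 5.89, 4.6, 3.12 and 7.24 CPM, in the same order of lines at its ends. Zim1, maternally expressed, had 0, 1, 70 and 1 counts in all. Peg10, a gene derived from a retrotransposon and needed in the placenta, was at 2.1, 1.5, 0.135 and 9.14 CPM, with AF32 highest by 4.35-fold. Only 10 of 80 AF32 cells reached 5 CPM, and 1 of them, with 1900 CPM of Tubb3, held 39.7% of the Peg10 counts of the line. Without the highest cell of each line the gap was 3.21-fold, and the call was lost. Peg10 reached 5 CPM in 0 of 66 AFX6 cells, which, taken as at most 3 cells, allows a share of up to 4.55%. Sgce, the sarcoglycan gene that shares its promoter region, was at 26.2, 31.8, 38.4 and 60.4 CPM and was also highest in AF32.

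None of the remaining 17 members had a called split. Airn, Zrsr1, Peg13, Plagl1, Nap1l5 and Rasgrf1 were under 5 CPM in every line, so no split could be called for them. Among the pairs, the decoy receptor gene Igf2r, which clears Igf2 protein, was at 17.2, 15.8, 22 and 36.3 CPM, and its antisense RNA Airn at 0 to 0.34 CPM. Gnas (11.1 to 17 CPM) and its antisense RNA Nespas (3.44 to 6.4 CPM) overlap each other, so their reads cannot be told apart. H13, a signal peptide peptidase gene, was at 146, 118, 114 and 177 CPM and its retrogene Mcts2 at 44.7, 49.8, 33.7 and 60.6 CPM. Commd1 lay between 70.9 and 127 CPM and was found at 5 CPM in 97% or more of the cells of every line, while the retrogene in its intron, Zrsr1, lay between 2.09 and 3.32 CPM. A single AF32 cell with 25.5 CPM of Pou5f1 held 65.5% of the Zrsr1 counts of its line, which was at 0.728 CPM without it. Grb10, which encodes an adaptor that dampens insulin signalling, was at 304, 161, 221 and 459 CPM. Grb10 and Commd1 lie on chromosome 11, whose genes had a median ratio of 1.3 to the other autosomes in AF32 and 0.9 to 0.913 in the other lines. The part of this ratio in the high AF32 values was not tested. Trappc9 was at 26.8, 22.3, 48.4 and 41.3 CPM, and Peg13, an RNA from its intron, at 1.7, 2.6, 0.00601 and 0 CPM, so these 2 genes went opposite ways, at a low level for Peg13. Impact, Zdbf2 and Inpp5f lay between 10.2 and 155 CPM. The last 3 paternally expressed genes were near 0 in both EpiSC lines: Plagl1 (1.4, 0.428, 0.0481 and 0.0365 CPM), Nap1l5 (1.5, 0.244, 0 and 0 CPM) and Rasgrf1 (0.125, 0.651, 0 and 0 CPM).

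In the order of the lines, 9 of the 33 genes had both FS lines above both EpiSC lines (27.3%, beside 26.1% of all genes at this level) and 8 had both below (24.2%, beside 27.6%), which is near the background. AFX6 was the lowest line for 16 of the 33 (48.5%, beside 33.4%), including 9 of the 15 paternally expressed genes and Meg3, Rian and Mirg. AF32 was the highest for 15 (45.5%, beside 32.231%). Among these, Grb10 and Commd1 lie on chromosome 11, and H13, Mcts2 and Blcap on chromosome 2. In AF32 these chromosomes stood above 1.2 times the other autosomes in 66 and 29 of 80 cells. The part of this in the count was not tested. Splits with both FS lines on the high side made up 3 of the 33, beside 0.546% of all genes. For the other patterns of the called genes the background was 0.929% with AF32 high, 0.921% with AFX6 high and 1.1511% with AFX6 low. Genes of 1 cluster share a locus, so the 33 are not independent of each other.

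Of the 41 genes, those that reached 5 CPM in 50% or more of the cells numbered 24 and 26 in the FS lines and 20 in either EpiSC line. In all 4 lines 17 did so. The same counts over all genes were not made, so these numbers are not read as particular to imprinted genes. The median share over the 33 genes was 86.7%, 76.7%, 56.1% and 71.2%, beside 68.9%, 70%, 51.5% and 55% over all genes at this level, so AFX6 was lowest for both. The range between lines was widest for Nnat (80.6 percentage points), Mest (76.2), Magel2 (67.2), Mirg (53.6) and Ndn (52). At the other end Grb10 and Commd1 had a range of 3 points, Copg2 of 3.8 and Snrpn of 5.

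**Figure D4:**
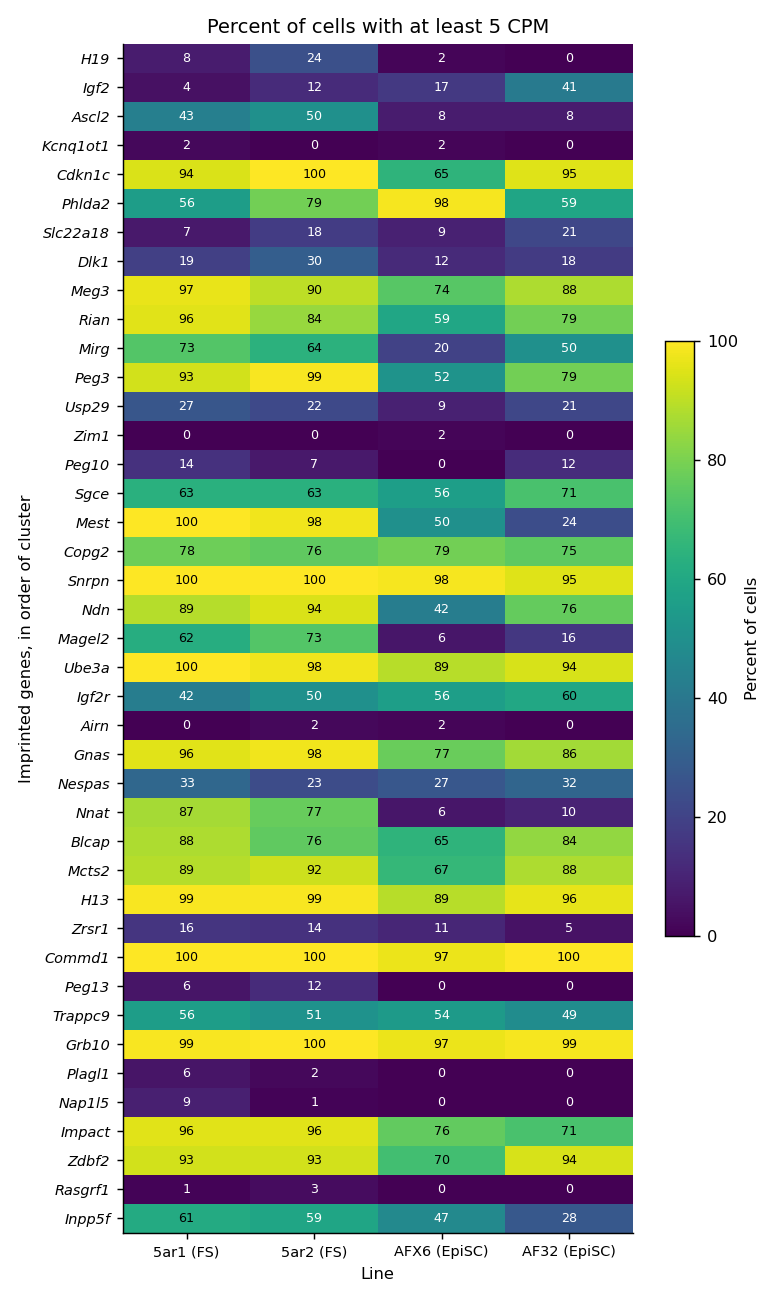
Percent of cells with at least 5 CPM of each of the 41 imprinted genes in each line, by colour and number. Nnat and Magel2 fall from 62.2% or more in both FS lines to 16.2% or less in both EpiSC lines, while Snrpn, Grb10 and Commd1 stay at 95% or more in all lines.

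Co-variation over cells was highest between Meg3 and the other RNAs of its cluster. For each pair of members of 1 cluster that both reached 5 CPM in 10% or more of a line's cells, Spearman's rho was taken over the cells of that line, as a description, because the cells share line, depth and preparation. Meg3 and Rian had rho 0.421, 0.446, 0.665 and 0.33. Meg3 and Mirg had 0.38, 0.34, 0.382 and 0.316. The 95th percentile over all pairs of genes within 500000 bases was 0.205 to 0.256 in the 4 lines and the median 0.0156 to 0.0319, so these 2 pairs lay above it in every line. Rian and Mirg had 0.205, 0.311, 0.173 and 0.253, and the share of all such pairs at or above these values was 5.03%, 0.929%, 14.9% and 3.78%, so this pair did not pass the percentile in 5ar1 or AFX6. Dlk1 with the 3 RNAs lay between -0.172 and 0.147. With Meg3, Rian and Mirg it was positive in AFX6 (0.092, 0.0433 and 0.147) and negative in the other lines. Ndn and Magel2 had 0.281 in 5ar2 and 0.219 in AF32, Snrpn and Ndn 0.269 in AFX6, and Peg10 and Sgce 0.211 in 5ar1. The median over member pairs was -0.00285 over 20 pairs of 5ar1 and 0.00367 over 25 of 5ar2, beside 0.116 over 14 pairs of AFX6 and 0.0827 over 21 of AF32. Mest and Copg2 had -0.23 in 5ar1, the lowest value there.

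**Figure D5:**
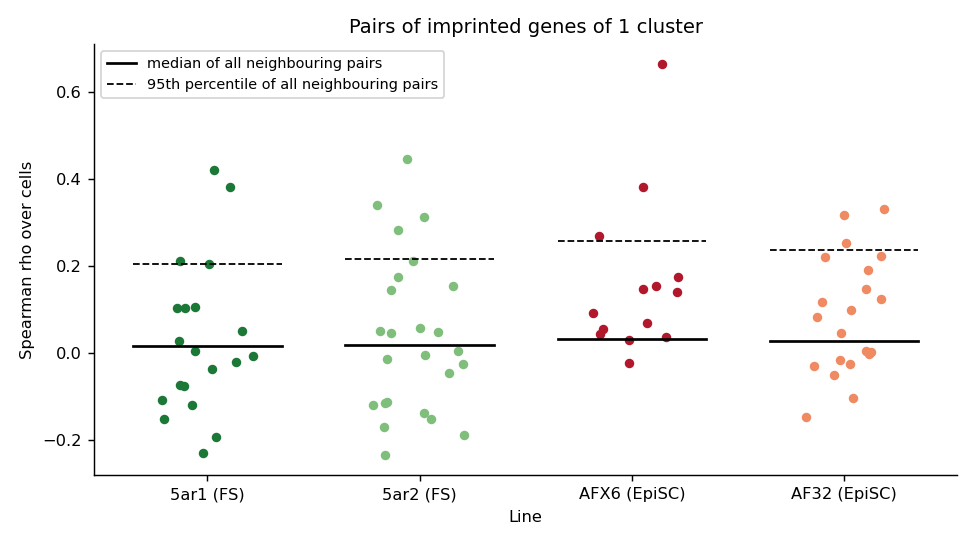
Spearman's rho over cells for each pair of imprinted genes of 1 cluster (points), by line, with the median (solid) and the 95th percentile (dashed) over all neighbouring gene pairs. The highest point of every line is Meg3 with Rian, from 0.33 in AF32 to 0.665 in AFX6.

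FS cells were then compared with EpiSCs with lines as replicates, 2 against 2, by edgeR's quasi-likelihood test on summed counts. The 2 EpiSC lines differ in medium and in Y-linked transcripts, so the spread within that group holds these differences too. A gene counted as called below 0.05 in p after Benjamini-Hochberg adjustment over all genes and beyond 1.4 in log2 fold change, either way. By edgeR, 0 of 22606 genes were called (0%), and 0 of the 40 imprinted genes that passed the filter on low counts. At an unadjusted edgeR p under 0.05 there were 3636 of the 22606 genes and 10 of the 40 members. These 10 include Peg13, Plagl1, Nap1l5 and Rasgrf1, which were under 5 CPM in every line and near 0 in both EpiSC lines. The 10 are therefore not read as an excess over all genes. The smallest edgeR adjusted p over all genes was 0.19. On data simulated with the spread estimated here the same test did not recover strong changes either, so with 2 lines a group the absence of calls does not show that levels were alike. The difference was 3.30 ± 0.22 (log2 fold change, SE) for Mest, 6.05 ± 0.53 for Nnat and 2.7 ± 0.39 for Ascl2, each with an edgeR adjusted p of 0.19. Copg2 lay at -1.07 ± 0.21, also with an edgeR adjusted p of 0.19. Over all genes the median log2 fold change was -0.01, and over the 40 members 0.21. DESeq2, which models the spread of 2 lines differently, called 1806 genes (8.1%), 874 of them higher and 932 lower in FS cells, among them 9 members: Ascl2, Mest, Magel2, Nnat, Peg13, Plagl1, Nap1l5 and Rasgrf1 higher in FS cells and Phlda2 lower. Of these, Peg13, Plagl1, Nap1l5 and Rasgrf1 were under 5 CPM in every line and at or near 0 in both EpiSC lines, so that they entered the fit through the FS lines, and their calls are not read further. A single cell held 100% of the Rasgrf1 counts of 5ar1, 99.1% of the Nap1l5 counts and 62.9% of the Plagl1 counts of 5ar2, and 34.4% of the Peg13 counts of 5ar1. limma on the mean CPM of cells called 0. Across 13 settings the log2 fold change stayed between 3.12 and 3.51 for Mest, 5.39 and 6.5 for Nnat and 2.07 and 3.06 for Ascl2.

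The genes flanking the called members did not share their splits. Protein-coding genes within 500000 bases that are not on the lists of imprinted genes and reached 5 CPM numbered 9 around Nnat, 5 around Mest, 2 around Ascl2, 5 around Phlda2, 3 around Igf2, 1 around Peg10 and 0 around Magel2. None of them had the split of its imprinted neighbour, and the only one with any split was the collagen gene Col1a2 next to Peg10. Of all genes at 5 CPM, 5.62% had any split and 0.546% to 1.1511% each of the patterns of the called members. With so few flanking genes these counts are near the background, and nothing is read from them about the loci.

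Most of the factors that set, protect or remove DNA methylation were transcribed in every line. Of a list of 20 such factors, 18 reached 5 CPM in each line and 19 in at least 1, beside 11728 of all 31617 genes in at least 1. By edgeR, 0 were called between FS cells and EpiSCs. Zfp57, which reads the methylated hexamer, was at 46.8, 45.8, 50 and 33.1 CPM. Trim28, its corepressor, was at 1310, 1120, 533 and 642 CPM, with a log2 difference of 1.05 ± 0.18 (edgeR adjusted p = 0.19). The maintenance methyltransferase gene Dnmt1 was at 177, 136, 114 and 120 CPM and its partner Uhrf1 at 310, 239, 171 and 209 CPM. The de novo methyltransferase genes Dnmt3a and Dnmt3b were at 285, 173, 151 and 271 CPM and at 2240, 1430, 493 and 616 CPM. Their germline cofactor Dnmt3l was the 1 factor of 19 with a line split, beside 5.62% of all genes, at 0.935, 5.36, 0.682 and 0.663 CPM. Tet2, which encodes a methylcytosine oxidase, was lower in both FS lines, at 6.8, 4.02, 15.2 and 41.4 CPM. Dppa3, which shields the maternal genome from demethylation in the egg, was at 0.448 CPM or less in every line.

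Of 34 further imprinted genes, 30 were in the table, 20 reached 5 CPM and 3 of these had a split, beside 5.62% of all genes, with 0 called by edgeR. Rtl1, the retrotransposon-derived gene of the Dlk1-Meg3 cluster, was at 13.3, 7.98, 0.836 and 5.6 CPM, with AFX6 alone on the low side, and reads of its maternally expressed antisense transcript cannot be told apart from it. Slc38a4, an amino acid transporter gene of the placenta, was at 27.2, 14.6, 9.2 and 0.0225 CPM, close to silent in AF32 alone. Th, the tyrosine hydroxylase gene, was at 9.02, 0.166, 0.015 and 0 CPM.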

How the data were processed

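Single cells of 4 mouse lines were sorted and read by Smart-seq2 (paired 101-base reads, no molecular identifiers). The authors aligned reads to GRCm38.p6 with STAR 2.7.3a, per the labels, and deposited raw counts of uniquely mapped reads per gene from featureCounts 2.0.0. The second deposited table holds their sctransform values, a score on the scale of counts, which was used only as an alternative. Reads are not stranded, so overlapping genes cannot be separated. The labels do not say that lines were processed on separate plates or days.

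Genes were matched to GENCODE M21 (GRCm38) by Ensembl identifier. Counts of cells with at least 3000000 counts were summed per line. CPM, line splits and shares of cells with exact Clopper-Pearson 95% intervals (counting error only, scipy 1.17.1) were computed in Python 3.11.15. A count of 0 allows up to 3 counts. edgeR 4.0.16 (TMM, filterByExpr, quasi-likelihood) in R 4.3.3 compared FS cells with EpiSCs, and was tested on simulated data. Lines are replicates, so p-values measure the spread between these lines, which for the EpiSC lines includes their difference in medium. Genes were named by rule: all members with a split or a call, their clusters, the 5 highest, the 5 with the widest share range, called genes of 2 further lists and fixed maintenance factors. The single cells held as highest, the limit of 50 CPM of Pou5f1 and the limit of 10000 genes were chosen after values were seen. The members, lists and tests were chosen with earlier results of these data known. Alternatives were DESeq2 1.42.0, limma 3.58.1, other size factors, filters, depths, thresholds, thinning and each line left out.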

Additional observations from a re-analysis of the deposited data

How the results depend on the processing

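No paired analysis was possible because the numbers in the labels only name cells, and the comparison rests on 1 sum per line. The number of genes called between FS cells and EpiSCs was 0 under the other settings run, and 1806 with DESeq2, with 0 and 9 imprinted genes. With each line left out in turn it was 0 for all genes and 0 for imprinted genes. The number of imprinted genes with a line split was 14 at a gap of 2-fold (beside 22.7% of all genes) and 2 at 8-fold (Mest and Nnat, beside 1.8%), and 5 to 9 under the other settings. Mest and Nnat had a split with both FS lines high under all of these settings. The mean rho of Meg3 and Rian was 0.466, 0.64 by Pearson's r and 0.421 to 0.478 otherwise. Over cells with at least 50 CPM of Pou5f1, 5 splits remained, without Igf2 and Peg10. Genes at 5 CPM in 50% or more of the cells of every line numbered 17, and 14 to 20 under other settings. The cause of these differences was not tested. With 2 lines a group, and 1 line for each EpiSC medium, a single odd line can set a split. Levels under about 5 CPM rest on few cells.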
